A study of Mus musculus with 2 samples.

Results

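The 9 genes described here encode the small GTPase Rheb, the subunits of the mTOR protein kinase complexes, and the proteins that restrain them. They are Rheb, Mtor, Rptor, Rictor, Tsc1, Tsc2, Mlst8, Akt1s1 and Ddit4, and they were taken by name, as 9 of 18193 genes with a probe set that the platform annotation assigns to 1 gene. They were read by 22 probe sets on 2 Affymetrix arrays of mouse B cell RNA, 1 array labelled mir155 KO and 1 labelled mir155 WT. Both samples came from male mice on a C57 background and received cycloheximide, an inhibitor of translation elongation, at 100 ug/ml for 8 min before harvest. The design text describes activated cultured B cells, whereas the growth protocol describes blood progenitors kept for 6 days with G-CSF and SCF. The number of mice behind each sample is not stated in the labels.

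The genotype labels contradicted each other. Titles and genotype entries gave the assignment used here, and the source names gave the opposite one for both arrays. Mir155hg, the host transcript of miR-155, had a log2 level of 10.88 on the array labelled KO and 6.63 on the array labelled WT, which goes against the titles. That difference of 4.25 was the highest of all expressed genes. Whether the Mir155hg probe set falls inside the deletion is unknown here, so its level alone does not settle which labels are right. The arrays are therefore called by their labels throughout, and under the source names every sign would be the opposite. With 1 array per label there is no spread between animals, no p-value, and no replicate check of any difference.

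Rheb is a Ras-like GTPase that, when loaded with GTP, activates mTOR complex 1 (mTORC1) on the lysosome. The TSC complex switches Rheb off by speeding up its GTP hydrolysis, and growth factor signals through AKT inhibit TSC. mTORC1 drives protein, nucleotide and lipid synthesis and holds back autophagy, while mTOR complex 2 (mTORC2) phosphorylates AKT and SGK kinases. In B cells the pathway is known for the growth that follows activation.

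miR-155 is a microRNA induced in activated B cells, and Rheb has been reported as one of its targets in mouse macrophages. The mature 5p strand is printed because its seed, the stretch that pairs with target transcripts, is what a Rheb site would have to match. Bases 2 to 8, in capitals, are the seed. The sequence is from RefSeq at chr16:84714143-84714165 on the plus strand (GRCm38.p6).
mmu-miR-155-5p: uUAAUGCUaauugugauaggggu
The stretch complementary to this seed is AGCAUUA. The Rheb transcript was not searched for it here, and the mature microRNA itself was not measured on these arrays.

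Values are log2 intensities, and each difference is the array labelled KO minus the array labelled WT. Where a gene had several probe sets, the one with the highest mean over both arrays gave its value. A gene counted as expressed when that mean reached 6.71, the median over probe sets other than controls, and all 9 genes did so. The central 95% of differences over 10717 expressed genes ran from -0.39 to 0.37. As a technical yardstick, the differences of the 2 brightest expressed probe sets were set against each other in 4906 genes. Their disagreement had a median of 0.084, and its 95th percentile was 0.31. Levels of different probe sets are not compared, because probes differ in brightness.

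Rheb was lower on the array labelled KO, and 1 of the 9 genes, Rheb alone, differed by 0.5 or more on the log2 scale (1.41-fold). Its single probe set had a log2 level of 12.51 on the array labelled KO and 13.17 on the array labelled WT. The difference was -0.67, a KO over WT ratio of 0.63. Among all expressed genes 1.31% were lower by 0.5 or more, 0.681% were higher by that much, and 1.99% differed by it in either direction. Rheb ranked 67 from the lowest of 10717, between Aloxe3 (-0.67) and Nrip2 (-0.67), and 0.821% of expressed genes had a larger difference in either direction. In RNA of a whole culture, less RNA per cell cannot be told apart from fewer of the cells that carry it.

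The Rheb gene lies at chr5:24802823-24842361 (GRCm38.p6). Because it had no second singly named probe set, its difference has no technical check within the gene. Rhebl1, which encodes the closest relative of Rheb, was read by 2 expressed probe sets. The brighter had 9.75 on the array labelled KO and 9.71 on the array labelled WT, a difference of 0.04, and the other had 9.17 and 9.25 in the same order, a difference of -0.08. Both differences lay inside the central 95% of expressed genes.

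**Figure D1:**
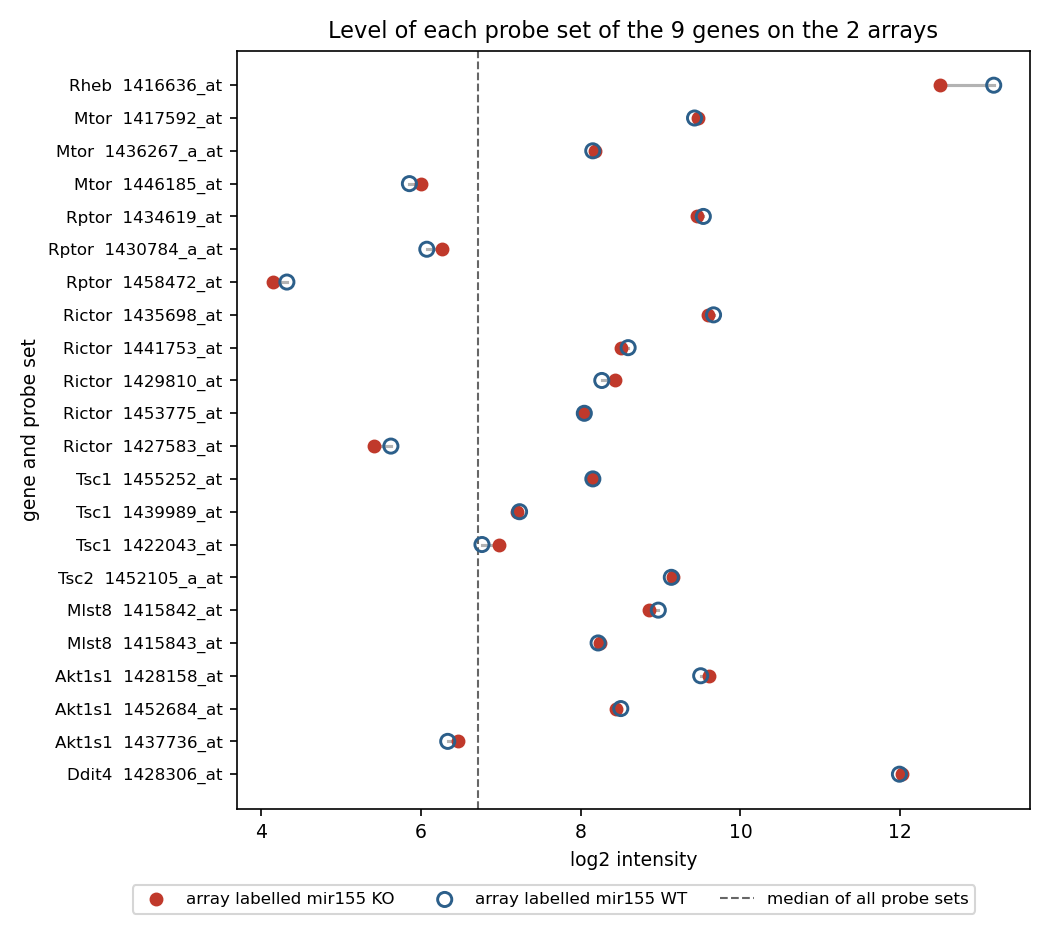
Log2 intensity (horizontal axis) of each of the 22 probe sets of the 9 genes, with filled points for the array labelled KO and open points for the array labelled WT; the dashed line is the median of all probe sets, 6.71. Rheb shows the widest gap (12.51 and 13.17), and 5 dim probe sets lie left of the line.

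The TSC genes, which encode the brake on Rheb, differed little. Tsc1 encodes hamartin, the scaffold of the complex. Its brightest probe set had 8.15 on each array, a difference of -0.003. The other expressed probe sets of Tsc1 had 7.20 on the array labelled KO and 7.23 on the array labelled WT, and 6.97 against 6.76. Their differences of -0.03 and 0.21 show that the probe sets did not share a direction, and the mean of all of them gave 0.06 for Tsc1. Tsc2 encodes tuberin, the subunit with the GTPase-activating domain. Its single probe set had 9.16 on the array labelled KO and 9.13 on the array labelled WT. The difference of 0.02 turned to -0.02 with quantile normalization and to -0.03 after subtraction of a loess curve. Tbc1d7, the third subunit, differed by 0.18 with its brightest probe set and by -0.20 with the other expressed one.

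The catalytic kinase and the subunit shared by both complexes were close on the arrays. Mtor encodes the kinase itself. Its brightest probe set had 9.47 on the array labelled KO and 9.43 on the array labelled WT, and the next had 8.18 and 8.15. The differences of 0.05 and 0.03 were under the median disagreement between probe sets of a gene, and the first became -0.003 after subtraction of a loess curve. Mlst8 encodes a WD repeat protein bound to the kinase domain. Its probe sets had 8.85 and 8.24 on the array labelled KO and 8.97 and 8.22 on the array labelled WT. The differences of -0.12 and 0.02 had opposite signs.

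The subunits that define mTORC1 gave a mixed picture. Rptor encodes raptor, which recruits substrates. It had 9.46 on the array labelled KO and 9.54 on the array labelled WT with its only expressed probe set, a difference of -0.07. Its 2 dim probe sets differed by 0.19 and -0.17. Akt1s1 encodes PRAS40, an inhibitor of mTORC1 that AKT phosphorylation releases. It had 9.61 on the array labelled KO and 9.50 on the array labelled WT, a difference of 0.11, the highest of the 9 genes. The other expressed Akt1s1 probe set had 8.44 and 8.50 in the same order, a difference of -0.06.

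Rictor, the scaffold of mTORC2, had the most probe sets of the 9 genes. Its 4 expressed ones had 9.60, 8.51, 8.43 and 8.03 on the array labelled KO, against 9.66, 8.59, 8.26 and 8.04 on the array labelled WT. The differences were -0.07, -0.08, 0.17 and -0.01, so 3 of the 4 were slightly lower on the array labelled KO. A 5th, dim probe set differed by -0.22. Mapkap1, which encodes the mTORC2 subunit SIN1, differed by 0.10.

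The related genes Prr5 and Prr5l encode the small mTORC2 partners PROTOR1 and PROTOR2, and they differed in opposite directions. Prr5l had 7.14 on the array labelled KO and 7.89 on the array labelled WT, a difference of -0.76. Its dimmer probe sets, below the level for expression, differed by -1.02 and -0.35, so all 3 were lower on the array labelled KO. Prr5 had 7.45 on the array labelled KO and 7.07 on the array labelled WT, a difference of 0.38, with a single probe set. Both lay near the level for expression.

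Ddit4 encodes REDD1, a stress-induced protein that restrains mTORC1 through TSC. Its single probe set had 12.02 on the array labelled KO and 11.99 on the array labelled WT. The difference of 0.03 became -0.004 after subtraction of a loess curve. Ddit4 is known to be induced by hypoxia, FOXO factors and the amino acid response factor ATF4, so genes of these responses were set beside it. Of 20 expressed ATF4 targets, Ddit4 included, 13 were higher and 7 lower on the array labelled KO, with a median of 0.04. Over all expressed genes 56.9% were higher, with a median of 0.03. No ATF4 target reached 0.5, which 1.99% of all expressed genes did in either direction. The highest were the lipoprotein receptor gene Vldlr (0.43) and the glutamine transporter gene Slc1a5 (0.21), and the lowest the pseudokinase gene Trib3 (-0.10) and Slc3a2 (-0.08), the heavy chain of amino acid transporters. With plain _at probe sets only, which leave fewer of these genes, 8 were higher and 5 lower.

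Hypoxia and FOXO genes were mostly lower on the array labelled KO. Of 19 expressed genes 12 were lower and 7 higher, with a median of -0.10. The prolyl hydroxylase gene Egln3 had 8.86 on the array labelled KO and 9.64 on the array labelled WT, and its 2 expressed probe sets differed by -0.78 and -0.63. Ndrg1, which encodes a stress-induced substrate of SGK1, differed by -0.42, and its 5 expressed probe sets lay between -0.52 and -0.40. The highest were Ankrd37 (0.43), a hypoxia-induced gene, and Pik3ip1 (0.21, or 0.11 as a mean), an inhibitor of PI3K. Over all expressed genes 42.1% were lower and 56.9% higher by any amount, and the median was 0.03.

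**Figure D2:**
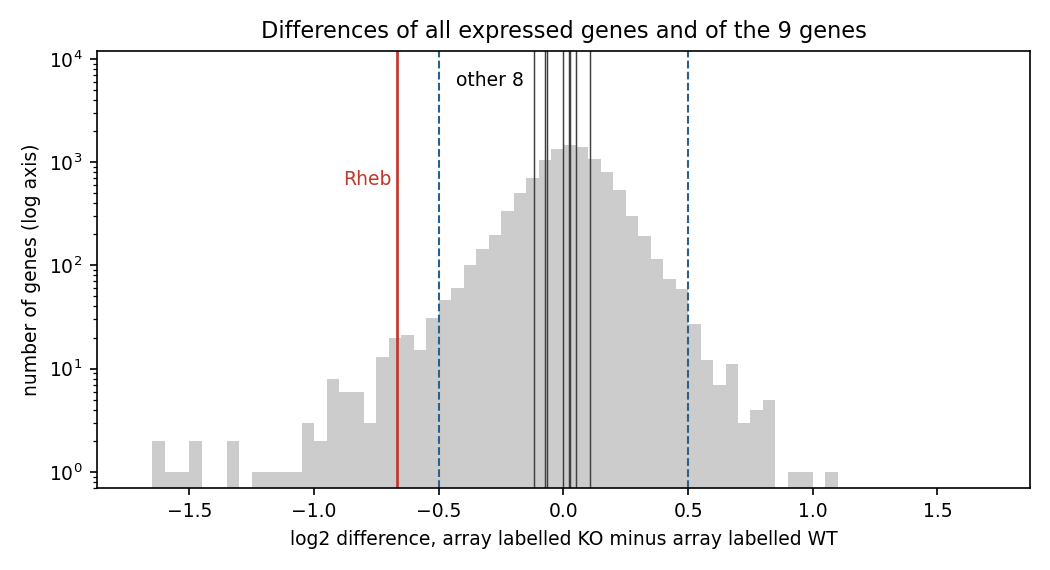
Number of expressed genes (log axis) by log2 difference, array labelled KO minus array labelled WT, in grey, with the 9 genes as vertical lines and dashed lines at -0.5 and 0.5. Rheb stands at -0.67, the other 8 genes lie between -0.12 and 0.11, and Mir155hg (4.25) is beyond the right edge.

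As a group, the 9 genes had a median difference of -0.003, with 4 values above 0 and 5 below. Without Rheb the other 8 values split evenly around 0, between -0.12 for Mlst8 and 0.11 for Akt1s1, and a median of 0.01. Of the 22 probe sets of the 9 genes 17 were at or above the level for expression, and of these 8 were higher and 9 lower. Over all 22519 probe sets at or above that level 13257 were higher and 9026 lower. Over all expressed genes 56.9% were higher. At a threshold of 0.3, which 9.37% of all expressed genes passed in either direction, the count was again Rheb alone. At 2-fold, which 0.159% of expressed genes passed, it was 0 of the 9.

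Further members of the pathway were described from lists by role. Their counts are to be read beside all expressed genes, of which 56.9% were higher and 42.1% lower by any amount, with a median of 0.03. Of the other complex subunits and their chaperones 9 of 10 were expressed, 6 of them higher and 3 lower on the array labelled KO, with a median of 0.10. Prr5l was the only one to reach 0.5, against 1.99% of all expressed genes in either direction. Tti1 (0.20), a chaperone partner that assembles mTOR, followed Prr5 at the high end, and Deptor (-0.07), an inhibitor of both complexes, followed Prr5l at the low end. Deptor lay barely above the level for expression (6.8 labelled KO, 6.9 labelled WT). Its dimmer probe sets, below that level, differed by -0.70 to 0.20.

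Genes that bring amino acid signals to mTORC1 differed little. Among Rag GTPases, Ragulator and their regulators 6 of 10 expressed genes were higher and 4 lower, with a median of 0.05 and a range from Lamtor5 (-0.06) and Rraga (-0.04) to Lamtor3 (0.19) and Fnip1 (0.18). Lamtor3 and Lamtor5 encode subunits of Ragulator, the lysosomal anchor, Rraga encodes RagA, and Fnip1 encodes a partner of folliculin. The value of Fnip1 was -0.002 with its plain probe sets, and that of Lamtor5 was 0.02 as a mean. Among GATOR, KICSTOR and sensor genes 11 of 16 were higher and 5 lower, with a median of 0.08. Castor2 (-0.23), which encodes a partner of the arginine sensor CASTOR1, and the leucine sensor gene Sesn2 (-0.04) were lowest, and Depdc5 (0.19), a GATOR1 subunit, and Seh1l (0.17), a GATOR2 subunit, were highest. As means of their probe sets Depdc5 gave 0.04 and Seh1l 0.07, and Seh1l gave 0.04 with plain probe sets. Castor2 lay near the level for expression (6.8 labelled KO, 7.1 labelled WT). Its other expressed probe set differed by -0.24, and those below that level by -0.34 and 0.065. None of these genes reached 0.5, which 1.99% of all expressed genes did in either direction.

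Upstream kinases and phosphatases were likewise spread around 0. Of 15 expressed genes of the PI3K, AKT and AMPK inputs 8 were higher and 7 lower, with a median of 0.03. Inpp5d, which encodes the lipid phosphatase SHIP1 and is itself a known miR-155 target, had 11.03 on the array labelled KO and 11.39 on the array labelled WT. Its 2 expressed probe sets differed by -0.36 and -0.35. Prkab2 (-0.21), an AMPK subunit gene, was next, while Prkaa1 (0.32), the AMPK catalytic subunit alpha 1, and Pik3r1 (0.25), a regulatory subunit of PI3K, were highest. Prkab2 gave -0.06 as a mean, and its second probe set differed by 0.08. The other expressed probe sets of Pik3r1 differed by 0.49, -0.035 and 0.28.

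Among 21 expressed mTOR substrates and effectors 15 were higher and 6 lower on the array labelled KO, with a median of 0.08. Over all expressed genes 56.9% were higher and 42.1% lower by any amount, with a median of 0.03. Sgk1, a kinase phosphorylated by mTORC2, had 9.90 on the array labelled KO and 10.37 on the array labelled WT, a difference of -0.47 that reached -0.51 with quantile normalization and -0.52 after subtraction of a loess curve. Maf1 (-0.15), a repressor of RNA polymerase III, was next. Eef2k (0.33), the kinase that inhibits elongation factor 2, and Pdcd4 (0.29), an inhibitor of the initiation helicase, were highest. Eef2k gave 0.03 with its plain probe set. None of this list reached 0.5 in the values as reported, against 1.99% of all expressed genes in either direction.

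**Figure D3:**
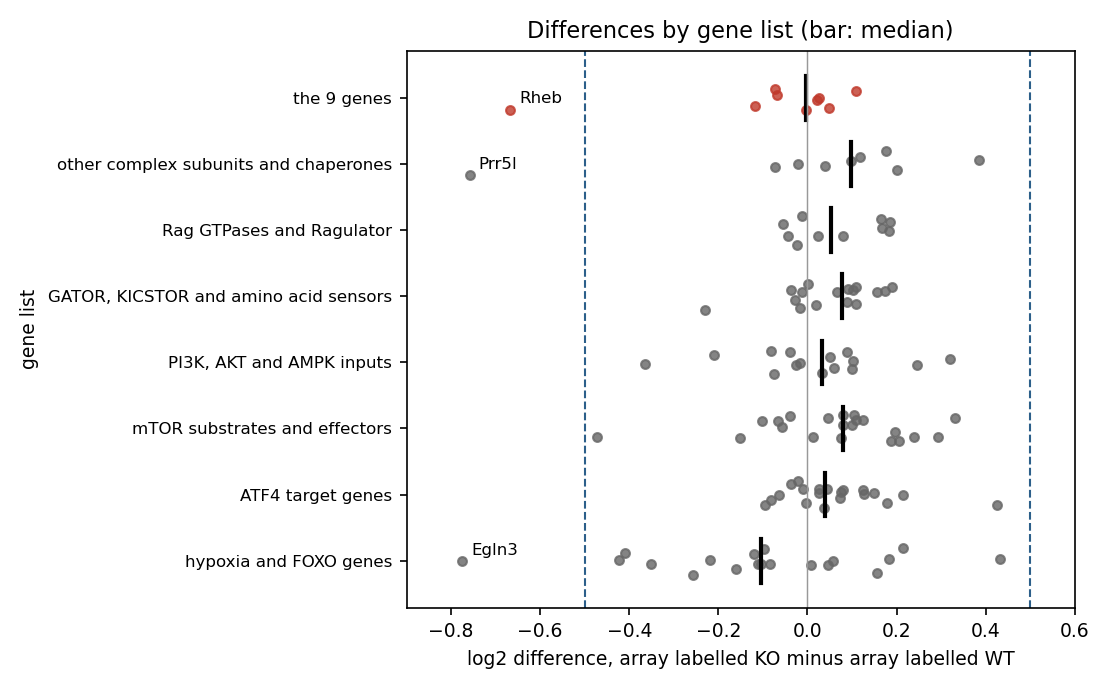
Log2 difference, array labelled KO minus array labelled WT, of each expressed gene (points) in the 9 genes and in 7 further lists, with the list median as a bar and dashed lines at -0.5 and 0.5. Only Rheb (-0.67), Prr5l (-0.76) and Egln3 (-0.78) pass 0.5, against 1.99% of all expressed genes in either direction.

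Marker genes were read to check the labelled cell type and what moved with Rheb. All 9 measured B cell markers were at or above the level for expression. So were 7 of 9 macrophage and monocyte, 5 of 7 T and NK cell and 3 of 7 dendritic cell markers. The counts were 2 of 10 for neutrophils and their precursors and 0 of 4 for stem and progenitor cells. Of all 18193 genes 10717 reached that level, so such counts alone do not show that a cell type was present. B cell markers were higher on the array labelled KO in 9 of 9 cases, and their summed intensity had a KO over WT ratio of 1.21 (log2 sums 15.68 and 15.40). Of 7 expressed macrophage and monocyte markers 6 were lower, with a ratio of 0.831 over the 9 measured (10.38 and 10.64), and Itgam and Mrc1 were below the level for expression. A sum weighs bright probe sets most, here Tyrobp (8.97 labelled KO, 9.36 labelled WT). The next brightest was Csf1r (7.5 and 7.7), and the remaining expressed ones lay near the level for expression. The ratio was 0.858 for 7 dendritic cell markers (11.03 and 11.25), with Cd209a, Itgax, Siglech and Xcr1 below the level for expression. Of the 3 expressed ones Zbtb46 (-0.44) and Flt3 (-0.27) were lower and Batf3 (0.37) was higher. The ratio was 1.06 for 7 T and NK cell markers (10.57 and 10.49), with 3 of the 5 expressed ones higher and 2 lower. Gzma (9.45 labelled KO, 9.28 labelled WT) was the brightest of these, and the next was Cd3e (7.77 and 7.52). The part of these shifts in the Rheb difference was not tested.

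The promoters of the 9 genes were compared for sequence features that the choice of genes did not use. Each window runs from 250 bases before to 50 bases after 1 annotated start (GRCm38.p6), and all 9 genes had one. That start is not always the outer end of the gene. The Akt1s1 window (chr7:44850122-44850421) lies wholly inside the gene, which begins at 44849224. Most of the Tsc1 window (chr2:28640983-28641282) also lies inside its gene, which begins at 28640993. The Rheb and Ddit4 windows do start from the gene's end in RefSeq. The median GC content of the 9 windows was 65.0%, against 52.7% over 32817 windows of the same length. The E-box CACGTG, bound by MYC and TFEB family factors, was found in 1 of the 9, that of Rheb, and in 7.15% of all windows, searched on both strands. The hypoxia response core ACGTG was in 3 of the 9 (Rheb, Ddit4 and Rptor) and in 19.6% of all windows, and in Rheb it is part of the E-box. The GC box GGGCGG was in 5 of the 9 against 35.6%, the CCAAT box CCAAT in 3 of the 9 against 37.4%, and the ATF4 composite element TGATGNAA in 0 of the 9 against 3.97%. The windows behind these shares were neither limited to expressed genes nor matched for GC content.

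The windows of Rheb and Ddit4 are printed, the first because Rheb was the gene that differed, the second because the core of hypoxia response elements bears on the list set beside Ddit4. Capitals mark the E-box in Rheb, at -96 from the gene start, and the ACGTG core in Ddit4, at -187. The Rheb window is chr5:24842312-24842611 and the Ddit4 window chr10:59951721-59952020, both on the minus strand. A match is a description of the letters, not evidence of binding.
Rheb promoter: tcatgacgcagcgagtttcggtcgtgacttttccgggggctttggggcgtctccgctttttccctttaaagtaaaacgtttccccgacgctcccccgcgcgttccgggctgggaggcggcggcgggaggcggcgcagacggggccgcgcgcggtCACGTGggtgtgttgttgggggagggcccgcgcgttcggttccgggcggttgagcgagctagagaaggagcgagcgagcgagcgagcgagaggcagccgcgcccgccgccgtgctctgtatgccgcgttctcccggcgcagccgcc
Ddit4 promoter: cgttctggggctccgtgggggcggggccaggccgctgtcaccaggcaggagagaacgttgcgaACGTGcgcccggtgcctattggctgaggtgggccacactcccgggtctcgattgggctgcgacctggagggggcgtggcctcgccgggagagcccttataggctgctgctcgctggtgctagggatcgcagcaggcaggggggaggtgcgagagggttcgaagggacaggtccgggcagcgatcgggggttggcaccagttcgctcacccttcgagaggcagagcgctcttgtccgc

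The Rheb difference stayed between -0.69 and -0.67 under all 7 processing settings tried, as reported and with 6 alternatives. Rheb has a single, bright, plain _at probe set, so the probe set and filter settings could not change its value. Only quantile normalization (-0.67) and the loess curve (-0.69) could. The other 8 genes stayed between -0.17 and 0.11 wherever a setting kept them, and Rptor, Tsc1 and Tsc2 each had no value under 1 setting. Within that band the sign turned under at least 1 alternative for Mtor, Tsc1, Tsc2 and Ddit4, so the counts above and below 0 depend on the setting for these 4.

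**Figure D4:**
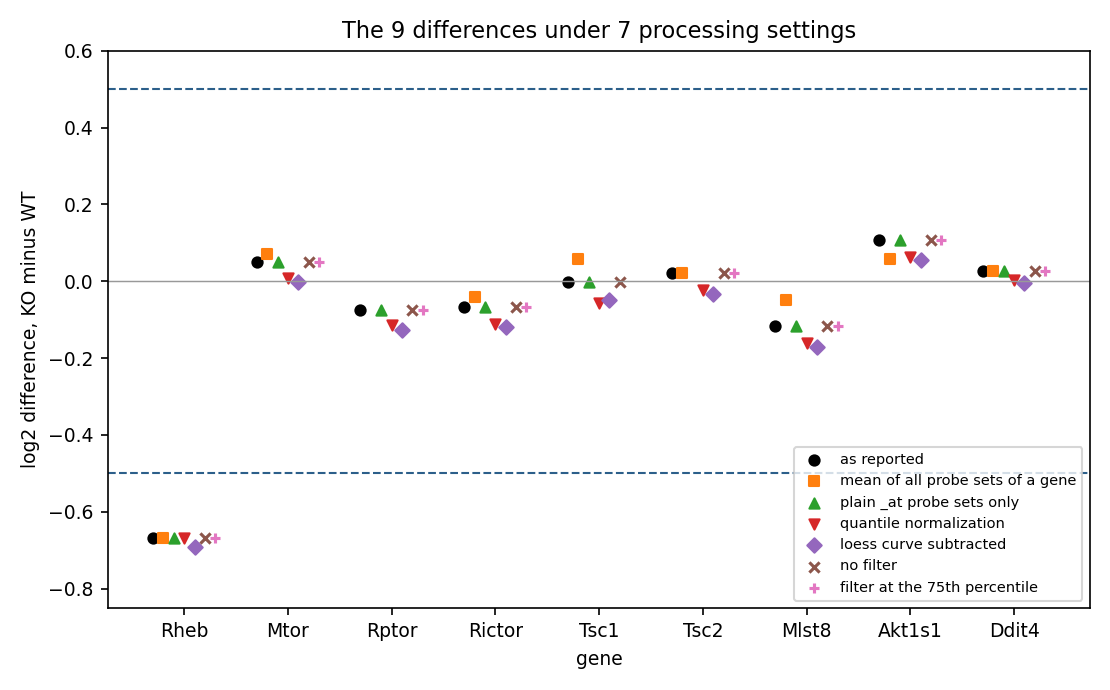
Log2 difference, array labelled KO minus array labelled WT, of the 9 genes under 7 processing settings (symbols), with dashed lines at -0.5 and 0.5. Rheb stays between -0.69 and -0.67, and the other 8 genes stay within -0.17 and 0.11.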

How the data were processed

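The deposited table holds log2 intensities of 45101 probe sets on 2 arrays, read as log2 from their range (3.09 to 15.4). Total RNA was labelled as biotinylated cRNA with an Affymetrix 3′ IVT Express kit, per the labels' protocols. How the authors summarised and normalized the probes is not stated in the labels. Once sorted, the values of both arrays lay within 0.064 of each other, so a difference in total RNA per cell would not be visible. Array medians were 6.701 (labelled KO) and 6.718 (labelled WT). The number of arrays limits the precision.

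The platform annotation named 1 gene for 34945 probe sets, several for 932 and none for 9160, and 64 were controls. Of the first, 34741 matched RefSeq genes (GRCm38.p6) by Entrez number. Genes took the probe set with the highest mean. Of 18193 genes 10717 passed the filter on low values.

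The members and gene lists were chosen with earlier results of these data known. All 9 members are named. From each other list the text names genes past 0.5 and the 2 highest and 2 lowest expressed. Rhebl1, Tbc1d7, Mapkap1 and Rps6kb2 were named beside their relatives after their values were seen, as were the neighbours of Rheb by rank. Listed genes with no probe set of their own were not used here. No test was run. Alternatives were averaging all probe sets of a gene, plain _at probe sets only, quantile normalization, a loess curve (span 0.3), no filter, a filter at the 75th percentile (8.85 on the log2 scale), and thresholds of 0.3 and 2-fold. The calculation was run on simulated data with planted 2-fold shifts, which checks its steps and not the differences measured here. Tools were statsmodels 0.14.6 for the loess curve, matplotlib 3.10.9 for figures, and NumPy 2.4.6 with pandas 2.3.3 under Python 3.11.15.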

Additional observations from a re-analysis of the deposited data

How the results depend on the processing

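The Rheb difference lay between -0.69 and -0.67 under the 6 alternatives, of which only quantile normalization and the loess curve could change it. The count of members past 0.5 was 1 under the 6 alternatives of probe set, normalization and filter and at a threshold of 0.3. At 2-fold the count was 0. The median over the 9 genes lay between -0.06 and 0.02, positive only with the mean of all probe sets. Of 201 values of 37 named genes under alternatives, 7 had the sign turned and 8 moved by 0.084 or more, and 0 of the genes past 0.5 turned. Part of the 201 values could not change. The filter settings leave every kept value as it is. The probe set settings do the same for a gene whose only probe set is a plain _at one. The number of expressed genes past 0.5 was 213 as reported, 359 without a filter and 109 with the filter at the 75th percentile, because these settings keep 18193 and 6306 genes. Prr5l does not pass that stricter filter. No array could be left out, because that would leave 1 array. No paired analysis was possible because each label has 1 array. The Rheb value rests on 1 probe set, and the genotype labels contradict each other.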

Other observations

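In human cancer cells miR-155 has been reported to target RHEB, RICTOR and RPS6KB2, so the mouse genes can be read side by side, a choice made after their values were seen. On these arrays the log2 difference, array labelled KO minus array labelled WT, was -0.67 for Rheb, -0.07 for Rictor and 0.12 for Rps6kb2, the gene of S6 kinase 2. Rps6kb2 had 9.08 on the array labelled KO and 8.96 on the array labelled WT with its single probe set. Rheb and Rps6kb2 each rest on 1 probe set, and no test of these differences was possible.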
